A study of Mus musculus with 24 samples.

Results

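The transcriptome described here is that of mpkCCD cells under vehicle, an immortalized mouse epithelial line with features of principal cells of the cortical collecting duct. It was taken from the 6 wild-type vehicle libraries of a series of 24 libraries in 4 groups. Membership followed the sample titles and used no measured value, although earlier results of these data were known. The deposited expression table gives 12224 rows a value in each of these libraries, and 3 of the rows had no read in any of them.

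The cells were labelled WT, as distinct from the Gpr39 knockout cells of the series. They had polarized on permeable inserts for 9 days in complete medium without dDAVP, a synthetic agonist of the V2 vasopressin receptor, before 24 h in simple medium. Vehicle was 0.1% DMSO with 10 µM ZnCl2, applied to the basolateral side for 2 h. The zinc salt was therefore present in this control too, and the levels describe zinc-exposed cells. The labels do not say whether the 6 libraries came from separate cultures, so every SD measures the spread between these samples, which may be technical.

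The collecting duct is the last part of the renal tubule, where final adjustments to urine are made. Its principal cells take up sodium through the epithelial channel ENaC and water through the aquaporin AQP2, both under hormonal control. Vasopressin binds the V2 receptor on the basolateral membrane, the receptor activates adenylyl cyclase through the stimulatory G protein, and protein kinase A then drives AQP2 to the apical membrane and raises Aqp2 transcription. Aldosterone acts through the mineralocorticoid receptor on ENaC and the sodium pump. Intercalated cells, scattered between principal cells, move protons and bicarbonate instead.

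Levels are given in scaled units, which are the deposited length-divided values multiplied by one constant so that the mean total of the 6 libraries is 1000000. A level can therefore be compared between genes as well as between libraries, as far as the gene lengths used by the authors hold. Recovered reads came to 37.9 ± 3.85 M per library (SD, n = 6), from 30.4 to 41.0 M. Library totals lay between 97.6% and 102.5% of their mean. A set of 37 gene lists served to describe groups, and a list member without a row of its own is not analysed here. Of the 874 genes on the lists, 586 had a row with a single name.

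The labelled cell type was first held against 4 markers: the water channel Aqp2, the ENaC subunit Scnn1b, the simple-epithelial keratin Krt18 and the adherens junction protein Cdh1 (E-cadherin). All 4 were detected in every library, but at very different heights. Krt18 lay between 2067 and 2541 scaled units with a median of 2301, and held rank 37 of all rows. Cdh1 lay between 796 and 851 with a median of 824, at rank 146. Both epithelial markers thus stood near the top of the ranking, and their libraries did not overlap with each other.

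The collecting duct markers were far lower. Scnn1b lay between 6.89 and 9.99 scaled units with a median of 8.45, which rested on 173 to 271 reads per library, and had rank 9348. Aqp2, on chromosome 15, had levels of 12.4, 12.8, 23.4, 16.3, 22.6 and 22.4 in libraries 1 to 6, from 582 to 1365 reads. Its mean was 18.3 ± 5.12 scaled units (SD, n = 6) at rank 7659, below the median row of the table at 29.6. Aqp2 was highest in libraries 3, 5 and 6 and lowest in libraries 1 and 2, with library 4 between them.

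The height of Aqp2 depended on the length assigned to the gene. The deposited length was 5149 bases, whereas the longest coding Aqp2 transcript of GENCODE has 1419 bases. Divided by that length, the mean of Aqp2 was 49.4 scaled units. Krt18 behaved alike, with a deposited length of 4371 against 1437 bases, and stood at 5246 scaled units by the shorter one. Over the 11283 rows with a GENCODE length, the deposited one was 1.09 times as long at the median. It was over 2 times as long in 1408 rows and under 0.5 times in 584. The excess at Aqp2 and Krt18 was thus far above the median, but large differences were not confined to them. A rank or a level of single genes is accordingly tied to the deposited lengths, and orders that turn with the length are named below.

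The Aqp2 promoter is shown because vasopressin signalling converges on it through cAMP. The sequence is from RefSeq, assembly GRCm38.p6, chr15:99578806-99579105 on the plus strand, 250 bases before to 50 after the annotated start, 5′ to 3′. Capitals mark a match to the cAMP response half-site TGACG, searched on both strands, so that the match reads CGTCA here.
Aqp2: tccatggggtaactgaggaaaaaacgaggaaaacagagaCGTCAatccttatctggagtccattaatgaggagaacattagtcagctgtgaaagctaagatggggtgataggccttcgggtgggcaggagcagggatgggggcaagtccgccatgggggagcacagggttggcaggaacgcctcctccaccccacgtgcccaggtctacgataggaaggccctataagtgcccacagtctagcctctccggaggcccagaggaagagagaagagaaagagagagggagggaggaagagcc
This window held 1 match. The same letters occur in 20.8% of the 32851 promoter windows of that length, and the match is a description of the sequence alone.

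By the deposited lengths, the abundance ranking was led by genes of translation, glycolysis and metal binding. The elongation factor Eef1a1 held the first rank with 10170 ± 559 scaled units (SD, n = 6), followed by the glycolytic enzyme Gapdh with 8161 ± 688 and the metallothionein Mt1 with 7830 ± 1081. Eef2, a second elongation factor, had 6218 ± 137. Among the 25 highest rows were 9 ribosomal protein genes, led by Rplp1 with 5197 and Rps15 with 4977. Others with known roles were Ppia, a prolyl isomerase, the actins Actb and Actg1, the ferritin heavy chain Fth1, the monocarboxylate transporter chaperone Bsg, the cytokine Mif, the growth-related protein Tpt1, the pyruvate kinase Pkm, the chaperone Hspa8 and the second metallothionein Mt2.

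The 74 ribosomal protein rows together held 11.5% of the summed level, and 41 of them were among the 100 highest rows. The make-up of the top depended on the length: 15 of the 25 highest rows and 75 of the 100 highest were also there with GENCODE lengths, and 12 and 52 were there when rows were ranked by reads.

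The levels were spread over many genes. The 10 highest rows held 6.29% ± 0.199 of the summed level (SD, n = 6), the 100 highest 24.2% ± 0.691 and the 1000 highest 56.4% ± 0.884. Of the 12224 rows, 11560 or 94.6% reached a mean level of 1 scaled unit, 9040 or 74.0% reached 10, and 2082 or 17.0% reached 100. Only 113 rows reached 1000. The counts of genes in the lists below stand against these shares of all rows. The plot of the ranking shows where the genes of collecting duct function fall along this curve.

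**Figure D1:**
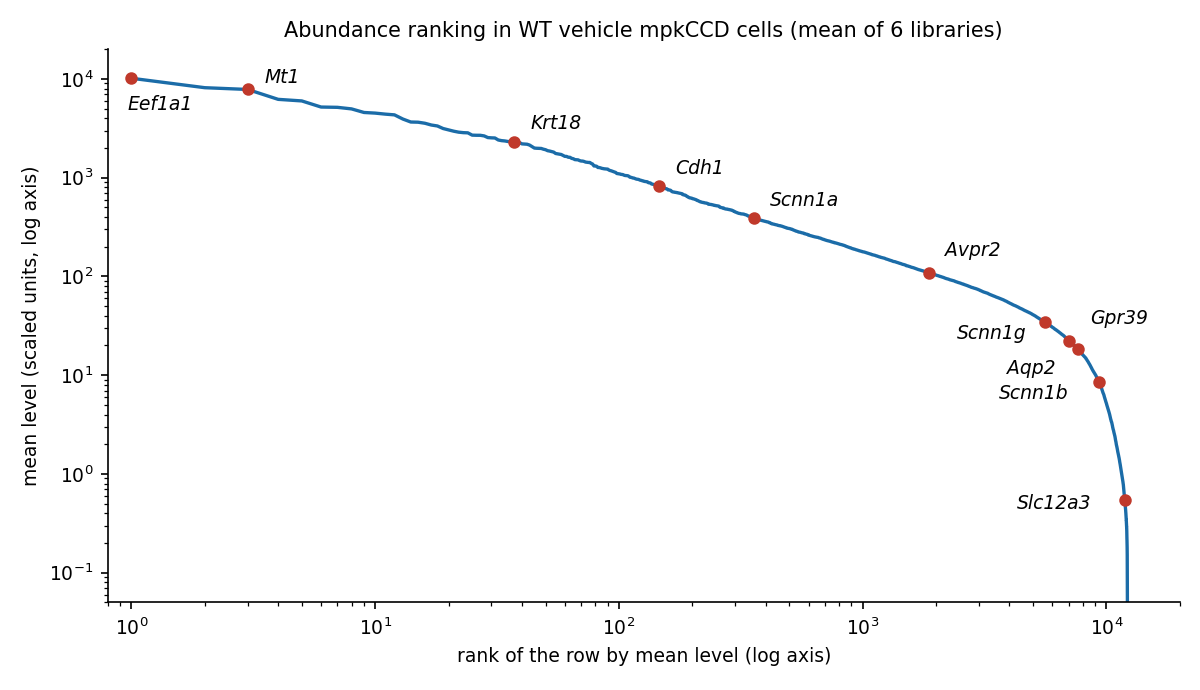
Mean level in scaled units (log axis) against the rank of each row (log axis), for the 6 wild-type vehicle libraries. Red points are named genes: Eef1a1 leads with 10170, Krt18 and Cdh1 stand at ranks 37 and 146 with 2316 and 823, Aqp2 lies near 18.3 at rank 7659, and Slc12a3, the cotransporter of the distal convoluted tubule, near 0.54.

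Of 22 principal cell genes, 18 had a single row, and 17 of these reached 1 scaled unit, 11 reached 10 and 5 reached 100. Over all rows 94.6% reached 1, 74.0% reached 10 and 17.0% reached 100. The share of principal cell genes was thus close to that of all rows at 1, smaller at 10 and larger at 100. The 5 highest were Npnt, a basement membrane ligand of integrins, Scnn1a, Fxyd4, a pump regulator of the collecting duct, the transcription factor Tfcp2l1 and the vasopressin receptor Avpr2. The median of the 18 genes was 26.4 scaled units, beside 29.6 for all rows. The principal cell genes with a single row thus had levels spread widely on both sides of the middle of the table.

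Npnt had 888 ± 101 scaled units (SD, n = 6), between 748 and 1033. Fxyd4 had 158 ± 36.6, and Tfcp2l1 had 110 ± 5.88. Hsd11b2, which inactivates glucocorticoids and so keeps the mineralocorticoid receptor open to aldosterone, had 81.2 ± 17.0, between 61.8 and 105. Tmem45b, a membrane protein, stood at 70.1 ± 14.6, and the ammonia transporter Rhcg at 51.0 ± 6.40. The low end of the list held Fgf9 at 10.6, the basolateral water channel Aqp3 at 6.40, the mineralocorticoid receptor Nr3c2 at 5.33, the prostaglandin synthase Ptges at 4.75 and the transcription factor Elf5 at 3.56. Apela had 1.30 and Kcne1, the only member under 1, had 0.412. Gata3 shared a row with a neighbouring transcript and is not described.

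Genes of the ureteric lineage, from which the collecting duct arises, were higher as a group. All 11 single-named members of the 23 reached 1 scaled unit, 10 reached 10 and 5 reached 100, with a median of 61.8. The membrane lipid raft protein Mal had 1061 ± 121 scaled units, the keratins Krt19 and Krt7 had 838 ± 51.9 and 527 ± 23.6, and Wnt7b, a ligand that patterns the medulla, had 211 ± 1.83. The nephric transcription factors Pax8 and Pax2 stood at 191 ± 12.5 and 57.5 ± 8.93. Among Hox genes of the posterior trunk, Hoxd8 had 52.3 and Hoxd10 had 14.4. The lowest member was the transcription factor Sim1 with 8.58.

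Markers of intercalated cells were partly present. Of 21 listed genes, 10 had a single row, 8 reached 1 scaled unit and 7 reached 10, and their summed level ranged from 340 to 470 over the libraries. The carbonic anhydrase Car2 lay between 183 and 261 scaled units with a median of 234. The proton pump subunit Atp6v1b1 had 57.6 ± 7.43, Spink8, a protease inhibitor, 50.6 ± 15.0, and Aqp6, a water channel of acid-secreting cells, 28.7 ± 4.28. The proton pump subunit Atp6v0a4 had 15.1 and the transcription factors Dmrt2 and Hmx2 had 11.7 and 4.10.

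The 2 exchangers that define the intercalated subtypes were close to the detection floor. Pendrin, Slc26a4, of the bicarbonate-secreting subtype, rested on 8 to 20 reads per library and had 0.988 ± 0.325 scaled units. The anion exchanger Slc4a1 of the acid-secreting subtype had 0 to 7 reads and 0.419 ± 0.3999, and its mean lay within the range of the floor that 3 reads set, 0.387 to 0.515 over the libraries. In bulk RNA, fewer cells of a type and less RNA per cell cannot be told apart. Levels of Car2 or Atp6v1b1 do not say in which cells they were made.

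Markers of the other nephron segments were mostly low where they had a row. For the connecting and distal convoluted tubule, 7 of 16 genes had a row and 6 reached 1 scaled unit, but only the regulatory kinases Wnk1 and Wnk4 reached 10, with 96.1 ± 6.43 and 65.4 ± 5.58. The thiazide-sensitive cotransporter Slc12a3 had 0.543 ± 0.246 scaled units from 13 to 49 reads, and the magnesium channel Trpm6 had 2.48. For the thick ascending limb, 6 of 17 had a row. Bsnd, a chloride channel subunit that other distal cells also use, had 68.8 ± 11.3, whereas Egf, a growth factor made in distal segments, had 1.21. For the proximal tubule, 3 of 20 had a row, and the arginine synthesis enzyme Ass1 had 239 ± 16.7 while the endocytic receptor Lrp2 had 9.27. The defining genes of thick limb and proximal tubule, such as the furosemide-sensitive cotransporter and the phosphate and glucose carriers, are not analysed here.

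Podocyte genes with a row were ones that other epithelia also use: Cd2ap had 312, Podxl 95.2 and Synpo 25.7 scaled units. Markers of cells outside the epithelium were sparse. The summed level of the 4 measured fibroblast and pericyte genes ranged from 39.8 to 98.0 over the libraries, of the 3 endothelial genes from 78.9 to 95.2, and of the 4 immune genes from 63.7 to 70.35. Tagln, a contractile protein of smooth muscle and fibroblasts, had no read in any library, which allows at most 0.129 scaled units by the floor of 3 reads. The collagen Col1a1 had 1.16, the endothelial genes Eng and Plvap 1.78 and 0.898, the antigen presentation gene Cd74 1.23 and the B cell gene Cd79a 0.070, from 0 to 2 reads.

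Some genes of those lists were not near 0. Fibronectin, Fn1, had 44.2 ± 12.9 scaled units, Sparc 15.7 ± 7.58, the secreted protein Egfl7 85.0 ± 7.68, the lysosomal protein Cd68 30.3 ± 2.73 and Csf1r, the receptor of macrophage colony-stimulating factor, 35.5 ± 4.75. Whether other cells contributed to these values was not tested. The dot plot of markers sets these values side by side.

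**Figure D2:**
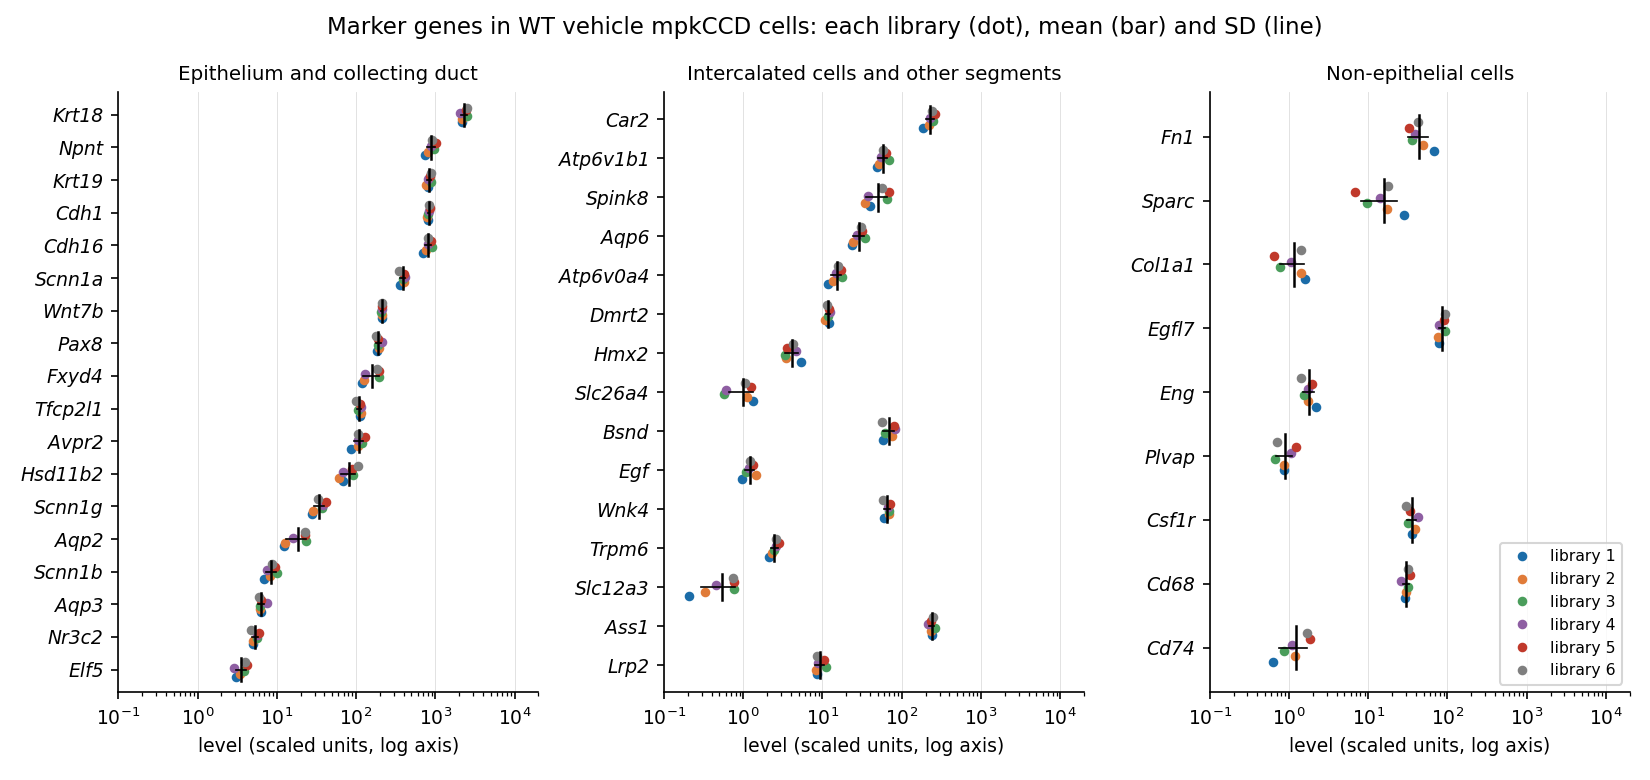
Level of marker genes in scaled units (log axis) in each of the 6 wild-type vehicle libraries (dots), with the mean (vertical bar) and SD (horizontal line). Epithelial genes lead at 823 to 2316 for Cdh1 and Krt18, collecting duct genes run from Npnt at 888 down to Elf5 at 3.56, and Slc26a4, Slc12a3 and Plvap lie under 1.

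Epithelial structure genes were abundant. Of 42 genes of junctions and polarity, 33 had a single row, 32 reached 10 scaled units and 21 reached 100, with a median of 157 beside 29.6 for all rows. After Cdh1 came Cdh16, a cadherin of kidney epithelium, with 809 ± 71.5 scaled units, the catenins Ctnna1 with 724 ± 10.4 and Ctnnb1 with 669 ± 19.3, the adhesion molecule Epcam with 717 ± 35.7, and the tight junction protein F11r with 656 ± 88.7. N-cadherin, Cdh2, the cadherin of mesenchymal and proximal cells, had 12.8 ± 4.36, so its highest library stayed far below the lowest of E-cadherin. Krt20, a keratin of differentiated surface epithelium, had 633 ± 75.0.

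Keratins illustrate how an order can depend on the division by length. Krt7 was below Krt19 in all 6 libraries, with a mean log2 ratio of -0.67 ± 0.10 (SD, n = 6), that is 1.59 times lower. An exact two-sided sign-flip permutation test over the libraries gave p = 0.03125, the smallest that 6 libraries allow. The Benjamini-Hochberg adjusted p over the 12 tested gene pairs was the same. For this pair and those below, the p describes agreement between these libraries at the deposited lengths. It does not cover error in the lengths. With GENCODE lengths the log2 ratio was smaller, at -0.20, and kept its direction. Only in reads without division by length was Krt7 above Krt19, with a log2 ratio of 1.18. The deposited length of Krt7 was 6008 bases and that of Krt19 was 1668.

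Transcription factors of epithelia were led by Elf3 with 372 ± 27.6 scaled units, Klf5 with 211 ± 19.1, Pax8 and Ehf with 124 ± 10.48. Of 49 such factors, 29 had a single row, 27 reached 1 scaled unit and 20 reached 10. Genes of the primary cilium, the sensory organelle on the apical side, were present in 31 of 32 cases with a single row, all above 1 scaled unit, and 28 reached 10. Their median was 26.8, and the intraflagellar transport gene Ift27 was highest with 128 ± 3.69. The polycystins Pkd2 and Pkd1 had 70.2 ± 2.34 and 15.1 ± 0.956, and fibrocystin, Pkhd1, had 18.5 ± 1.38.

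Sodium transport genes were present at every step, but the subunits of ENaC were unequal. Scnn1a, the pore-forming α subunit, lay between 350 and 420 scaled units with a median of 400, at rank 357. Scnn1g, the γ subunit, lay between 28.0 and 41.7 with a median of 35.2. Scnn1b, the β subunit, was the lowest, so that all 3 ranges stood apart. The mean log2 ratio of Scnn1a over Scnn1b was 5.53 ± 0.21 (SD, n = 6), or 46.2 times, and that of Scnn1a over Scnn1g was 3.51 ± 0.20, or 11.4 times. Scnn1b was below Scnn1g by a log2 ratio of -2.02 ± 0.18. Each order held in 6 of 6 libraries, with p = 0.03125 by the exact sign-flip permutation test and the same adjusted p. With GENCODE lengths the 3 ratios were 6.42, 4.16 and -2.26 and kept their directions.

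ENaC is opened by proteases that clip it and removed by a ubiquitin ligase. Of these, the protease Tmprss2 had 446 ± 33.8 scaled units, St14, matriptase, had 279 ± 11.1, and the channel-activating protease Prss8 had 87.0 ± 4.45. Nedd4l, the ligase that removes ENaC, had 77.4 ± 5.05, and its relative Nedd4 had 539 ± 31.6. Sgk1, the kinase that restrains Nedd4l under aldosterone, lay between 220 and 356 with a median of 266. Of the 24 genes of the pump and its regulators, 20 had a single row, 17 reached 10 scaled units and 9 reached 100.

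Subunits of the sodium pump differed in level. The β subunit Atp1b1 lay between 275 and 345 scaled units with a median of 332, and the second β subunit Atp1b3 had 130 ± 5.75. The regulatory subunit Fxyd2 had 159 ± 23.2, close to Fxyd4.

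Potassium and cation channels were led by Kcnk1, a background potassium channel, between 271 and 297 scaled units, and by the osmotically gated Trpv4 with 176 ± 11.2. The mechanosensitive channel Piezo1 had 104 ± 3.42, the cation channel Trpm7 55.7 ± 1.06, Kcnq1 47.7 ± 4.44 and Kcnk5 41.3 ± 3.70. All 12 channels with a single row reached 1 scaled unit and 10 reached 10. The apical secretory potassium channel of principal cells, Kcnj1, is not analysed here.

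Water channels were few and low. Of 12 aquaporins and urea transporters, 5 had a single row: Aqp6 with 28.7, Aqp2 with 18.3, Aqp5 with 15.3 ± 1.90, Aqp3 with 6.40 ± 0.549 and Aqp11 with 1.17 ± 0.470 scaled units. Aqp6 was thus above Aqp2 by deposited length, but with GENCODE lengths Aqp2 stood at 49.4 and Aqp6 at 27.1. Aqp2 was above Aqp3, the exit route for water on the basolateral side, in 6 of 6 libraries by a log2 ratio of 1.47 ± 0.47 (SD, n = 6), or 2.77 times, with p = 0.03125 and the same adjusted p by the exact permutation test. With GENCODE lengths that ratio was 3.88.

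Among carriers of chloride and sodium, Slc12a2, the basolateral NKCC1, lay between 79.3 and 109 scaled units with a median of 90.3. It was above the potassium chloride cotransporter Slc12a7, at 53.3 ± 1.52, in 6 of 6 libraries, by a log2 ratio of 0.77 ± 0.18, with p = 0.03125 and the same adjusted p by the exact permutation test. The sodium proton exchanger Slc9a8, of the Golgi, had 68.2 ± 2.58. Chloride channel genes were measured almost completely, with 18 of 21 single rows, all above 1, of which 16 reached 10. Clic1 led them with 536 ± 24.9, followed by Clic4 with 199 ± 6.31. The scramblase Ano6 and the calcium-activated channel Ano1 had 97.6 ± 5.403 and 80.7 ± 13.8.

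Of 28 acid-base genes, 20 had a single row and 14 reached 10 scaled units. The widely expressed proton pump subunits Atp6v1e1, Atp6v1b2 and Atp6v1a had 241 ± 14.1, 201 ± 8.68 and 176 ± 4.61, whereas Atp6v1b1, the subunit of intercalated cells, had 57.6. Car2, the carbonic anhydrase on the intercalated cell list, was as high as these at 229. The housekeeping anion exchanger Slc4a2 had 209 ± 7.06, whereas the exchangers Slc4a1 and Slc26a4 lay under 1. The sodium bicarbonate carrier Slc4a4 had 49.2 ± 4.42 and the carbonic anhydrase Car12 had 11.2 ± 1.62.

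Carriers of nutrients and osmolytes spanned a wide range of levels. Of the 196 single-named rows of the solute carrier family, 189 reached 1 scaled unit, 143 reached 10 and 23 reached 100, in shares close to those of all rows or lower. Bsg, which brings lactate carriers to the membrane, had 3926 ± 455, and the lactate carrier Slc16a1 had 157 ± 3.99. The glucose carrier Slc2a1 had 115 ± 7.13. Among amino acid carriers, Slc38a2 had 583 ± 30.4, the cationic carrier Slc7a1 280 ± 13.2, and the heavy chain Slc3a2 with its partner Slc7a5 had 221 ± 9.32 and 107 ± 2.09. Genes by which medullary cells accumulate osmolytes were also present, with aldose reductase, Akr1b3, at 183 ± 8.84 and the taurine carrier Slc6a6 at 181 ± 9.12.

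Zinc handling is described separately because zinc was in the medium. Of 24 genes for zinc transport and binding, 18 had a single row, all above 1 scaled unit, with a median of 29.0. Only the metallothioneins, small proteins that bind zinc and copper, exceeded 100. Mt1 lay between 6344 and 9287 scaled units with a median of 7809, and Mt2 between 2357 and 3881 with a median of 3098. Mt1 was above Mt2 in 6 of 6 libraries by a log2 ratio of 1.32 ± 0.07 (SD, n = 6), with p = 0.03125 and the same adjusted p by the exact permutation test. The deposited lengths were 625 bases for Mt1 and 680 for Mt2, and the longest coding transcripts of GENCODE have 1085 and 511 bases. With those lengths the log2 ratio was 0.11.

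The zinc carriers themselves were moderate. The importer Slc39a14 had 71.9 ± 6.42 scaled units, the exporters of intracellular membranes Slc30a9 and Slc30a4 had 57.1 ± 1.46 and 55.8 ± 2.92, and the plasma membrane exporter Slc30a1 lay between 33.5 and 48.9 with a median of 40.9. Mtf1, the zinc-sensing transcription factor that drives metallothioneins, had 5.30 ± 0.314. Mt1, Mt2 and Slc30a1, which are known targets of Mtf1, were all lowest in library 1 and highest in library 5. Of the 14 zinc genes that reached 10, 6 were lowest in library 1 and 6 highest in library 5, and these libraries also held 25.9% of the lowest and 20.9% of the highest values of all rows. Libraries without added zinc are outside this group, so these levels say nothing about induction. Iron genes were high too, with Fth1 at 4512 ± 411 and the iron exporter Slc40a1 at 141 ± 19.0.

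The promoters of these 3 genes are shown because Mtf1 binds a defined element. They are from RefSeq, assembly GRCm38.p6, each 250 bases before to 50 after the annotated gene start, all on the plus strand: Mt1 at chr8:94178839-94179138, Mt2 at chr8:94172368-94172667 and Slc30a1 at chr1:191906531-191906830. Capitals mark matches to the metal response core TGCACNC or TGCGCNC, where N is any base, on both strands, and the windows run 5′ to 3′.
Mt1: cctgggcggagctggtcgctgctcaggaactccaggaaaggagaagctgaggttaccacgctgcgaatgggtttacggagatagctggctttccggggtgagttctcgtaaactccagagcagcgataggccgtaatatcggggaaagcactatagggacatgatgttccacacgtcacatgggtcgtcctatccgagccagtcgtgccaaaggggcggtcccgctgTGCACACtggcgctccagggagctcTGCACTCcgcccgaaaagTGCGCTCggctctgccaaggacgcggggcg
Mt2: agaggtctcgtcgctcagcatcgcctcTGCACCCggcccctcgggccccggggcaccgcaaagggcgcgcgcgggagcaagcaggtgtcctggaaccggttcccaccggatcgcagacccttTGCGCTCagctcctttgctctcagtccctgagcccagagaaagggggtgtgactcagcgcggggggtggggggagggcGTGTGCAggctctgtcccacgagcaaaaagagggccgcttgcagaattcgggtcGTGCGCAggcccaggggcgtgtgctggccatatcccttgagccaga
Slc30a1: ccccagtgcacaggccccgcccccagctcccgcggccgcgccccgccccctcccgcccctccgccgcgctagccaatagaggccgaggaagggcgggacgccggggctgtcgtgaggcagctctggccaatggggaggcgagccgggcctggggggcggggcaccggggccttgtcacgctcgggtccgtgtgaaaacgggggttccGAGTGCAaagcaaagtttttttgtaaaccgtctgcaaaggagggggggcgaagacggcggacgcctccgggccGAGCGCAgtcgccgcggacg
Mt1 held 3 matches, Mt2 held 4 and Slc30a1 held 2. A match occurs in 25.7% of the 32851 windows of that length. The matches describe these letters alone, and other start sites of the genes are not covered.

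G protein-coupled receptors were sparsely covered in the table: of 55 listed for renal hormones and autacoids, 21 had a single row. Of these, 18 reached 1 scaled unit, 16 reached 10 and 6 reached 100, with a median of 28.9. Gprc5a and Gprc5c, orphan receptors induced by retinoic acid, led with 524 ± 62.5 and 357 ± 23.8. They were followed by the adenosine receptor Adora1 with 141 ± 12.9, the adhesion receptor Adgrl2 with 129 ± 5.31, Avpr2, the thrombin receptor F2r with 102 ± 7.26, the Wnt receptor Fzd6 with 97.1 ± 5.38 and the protease-activated receptor F2rl1 with 67.4 ± 7.32. The calcium-sensing receptor Casr and the bradykinin receptor Bdkrb2 were at the low end with 0.868 and 0.109, and Bdkrb2 rested on 0 to 3 reads.

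The 2 receptors of most interest in this series were both present. Avpr2 had levels between 85.2 and 131 scaled units with a median of 107, and was lowest in library 1 and highest in library 5. Gpr39, the zinc-sensing receptor on chromosome 1, had 25.4, 21.7, 23.3, 21.5, 21.3 and 21.1 in libraries 1 to 6, from 909 to 1377 reads. Library 1 was the highest for Gpr39, and the other 5 lay close together. Avpr2 was above Gpr39 in 6 of 6 libraries by a log2 ratio of 2.27 ± 0.28 (SD, n = 6), or 4.83 times, with p = 0.03125 and the same adjusted p by the exact permutation test. With GENCODE lengths the ratio was 1.37.

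Downstream of Avpr2, the stimulatory G protein Gnas had 1476 ± 46.9 scaled units, at rank 70. It was the highest of 26 single-named G protein and cyclase genes. All 26 were above 1 and 18 reached 10, beside 94.6% and 74.0% of all rows. The inhibitory α subunit Gnai2 had 290 ± 9.24. Gna11, of the Gq family that couples receptors to phospholipase C, had 135 ± 2.64. Adcy6, the cyclase best known for the vasopressin response of principal cells, lay between 45.8 and 52.6 with a median of 51.0. The other cyclases with a row were far lower, Adcy9 with 4.18 ± 0.425 and Adcy3 with 1.35 ± 0.489. Adcy6 was above Adcy3 in 6 of 6 libraries by a log2 ratio of 5.28 ± 0.58, with p = 0.03125 and the same adjusted p by the exact permutation test. That ratio rests on 2 to 9 Adcy3 reads and on a deposited Adcy3 length of 352 bases, and it was 10.3 with GENCODE lengths.

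Of 38 genes of protein kinase A, its anchors and phosphodiesterases, 26 had a single row, all above 1 scaled unit, and 21 reached 10, beside 74.0% of all rows. The regulatory subunit Prkar1a had 357 ± 13.7, and the catalytic subunit Prkaca had 171 ± 4.00. Prkaca was above the second catalytic gene Prkacb, at 84.9 ± 4.55, in 6 of 6 libraries by a log2 ratio of 1.01 ± 0.08, or 2.01 times, with p = 0.03125 and the same adjusted p by the exact permutation test. The anchoring proteins Ezr and Akap12 had 1003 ± 29.8 and 643 ± 53.4. The phosphodiesterases Pde4a, Pde4d and Pde4b, which break down cAMP, had 4.31, 4.09 and 3.18, beside 62.9 ± 6.18 for Pde7a.

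The machinery that moves AQP2 vesicles was covered almost completely. Of 38 genes, 34 had a single row, all reached 10 scaled units and 19 reached 100, with a median of 109. Hspa8, which binds AQP2 and uncoats clathrin vesicles, had 2860 ± 120, Mal, an apical retention partner, had 1061 and Ezr, which links membrane to actin, 1003. Stx3, a membrane fusion gene near the low end of the list, had 17.5, beside 18.3 for the water channel itself. With the GENCODE length of Aqp2 its level was 49.4.

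Of nuclear receptors, all 23 with a single row among 34 reached 1 scaled unit and 16 reached 10, beside 94.6% and 74.0% of all rows. Rarg and Nr1h2, receptors for retinoic acid and oxysterols, had 216 ± 6.48 and 192 ± 9.95. The glucocorticoid receptor Nr3c1 lay between 46.6 and 50.4 with a median of 47.7, and the mineralocorticoid receptor Nr3c2 between 4.70 and 5.95 with a median of 5.34. The log2 ratio of Nr3c1 over Nr3c2 was 3.18 ± 0.11 (SD, n = 6), or 9.03 times, in 6 of 6 libraries, with p = 0.03125 and the same adjusted p by the exact permutation test.

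Of 54 receptors for growth factors and cytokines, 44 had a single row, all reached 1 scaled unit and 41 reached 10. The Wnt coreceptor Lrp5 led with 262 ± 11.5, followed by the neuregulin receptor Erbb3 with 188 ± 11.2, Fgfr2, which drives branching of the ureteric bud, with 162 ± 21.6, Erbb2 with 145 ± 5.08, the TGF-β receptor Tgfbr2 with 124 ± 2.13 and the interferon γ receptor Ifngr2 with 117 ± 10.0. The plot of transport and receptor genes shows how narrow most of these ranges were against the differences between genes.

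**Figure D3:**
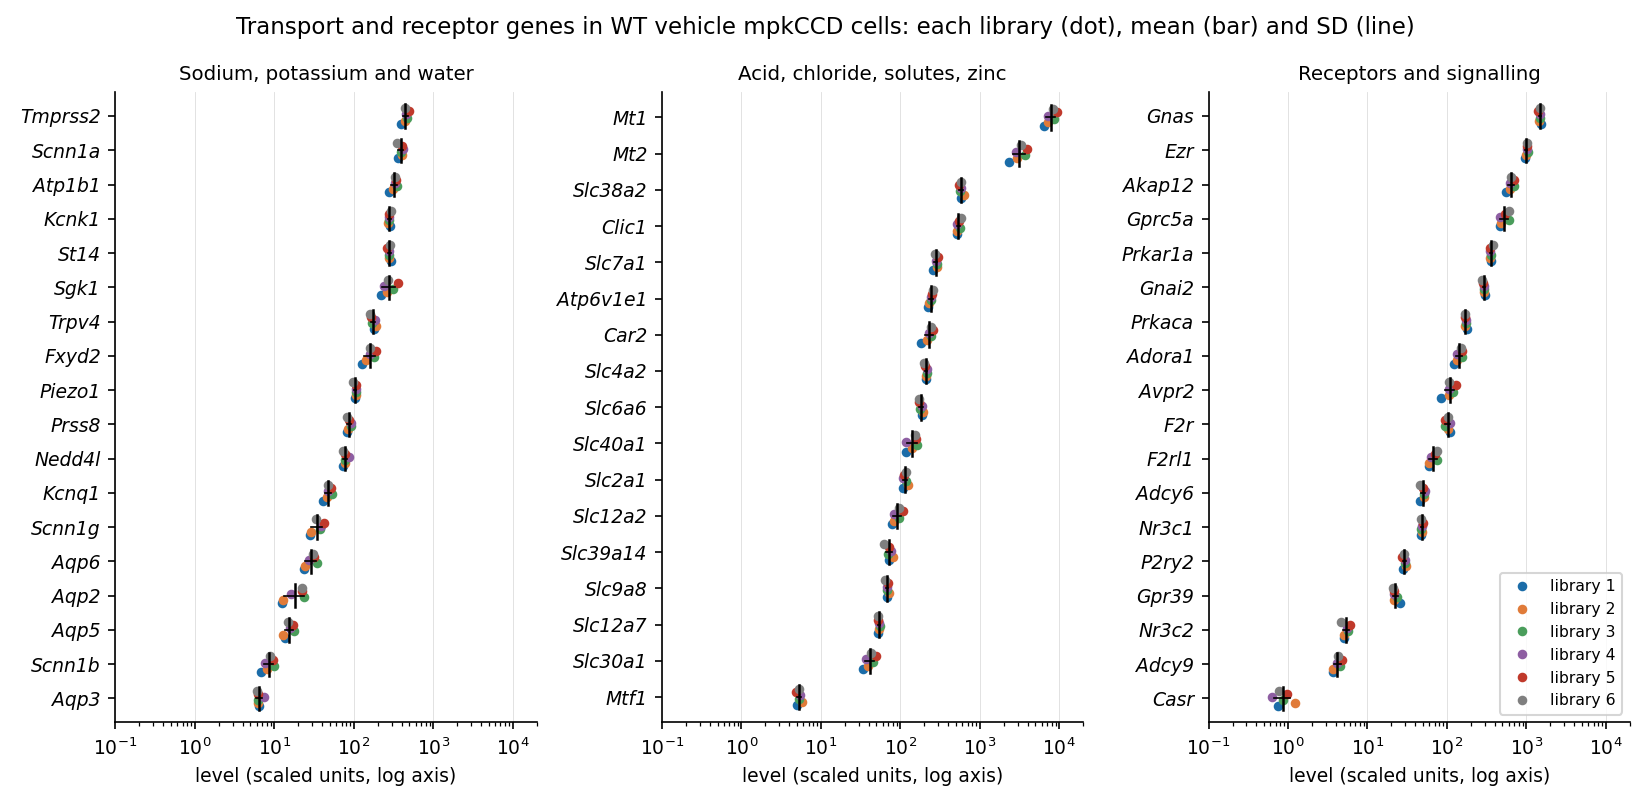
Level of transport, receptor and signalling genes in scaled units (log axis) in each of the 6 wild-type vehicle libraries (dots), with the mean (vertical bar) and SD (horizontal line). Scnn1a at 390 stands apart from Scnn1g at 34.6 and Scnn1b at 8.49, Mt1 and Mt2 lead the second panel at 7830 and 3149, and Avpr2 at 109 lies above Gpr39 at 22.4.

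All 31 single-named cell cycle genes of 35 reached 10 scaled units, beside 74.0% of all rows. The replication helicase subunit Mcm6 had 486 ± 22.9 and the cell cycle inhibitor Cdkn1a had 496 ± 36.4, while the proliferation markers Top2a and Mki67 had 104 ± 26.6 and 40.2 ± 11.0. Glycolysis genes, 18 of 20 with a single row, had a median of 581 scaled units, and 7 reached 1000, among them Pgk1 with 2202 ± 188 and Ldha with 1183 ± 95.03. The 22 nuclear-encoded genes of oxidative phosphorylation had a median of 318. The 15 mitochondrially encoded genes are not analysed here.

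Genes of metal and oxidative defence were high, with 24 single rows, all above 10 scaled units, and a median of 537. The glutathione peroxidase Gpx4 had 1461 ± 124, the thioredoxin-binding protein Txnip 1238 ± 229 and heme oxygenase, Hmox1, 968 ± 225. Immediate-early genes, which report recent stimulation, were also expressed: of 23, 18 had a single row and 8 reached 100, with Egr1 at 320 ± 42.0, Klf6 at 275 ± 49.1, Btg2 at 240 ± 53.8, Nr4a1 at 190 ± 48.1 and Atf3 at 155 ± 48.9. Of 24 single-named interferon-stimulated genes, 16 reached 10 and only Bst2, with 164 ± 15.0, reached 100.

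Replicate spread was small for most genes. The median coefficient of variation (CV, the SD as a percentage of the mean) over the 11560 rows at 1 scaled unit or more was 6.32%, and 5.11% beyond what counting reads alone would give. It was 14.1% for rows between 1 and 10 scaled units, 5.59% between 10 and 100, 5.02% between 100 and 1000, and 6.08% above. Low genes varied more, and the median row of the lowest class had 110 reads per library. Beyond counting, the medians of the 4 classes were 8.26%, 4.78%, 4.81% and 6.06%.

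Aqp2 was among the more variable genes of its level, with a CV of 28.0% beside the 5.59% median of its class, in which 95% of rows lay under 15.5%. Of the principal cell genes in that class, Hsd11b2 with 21.0%, Fgf9 and Tmem45b with 20.9% each and Scnn1g with 15.6% also lay above that mark, and Rhcg with 12.5% did not. Fxyd4 had 23.2% in the class above, where 95% of rows lay under 12.6%. Cdh1, Krt18, Avpr2 and Gpr39 had 2.77%, 8.78%, 13.8% and 7.45%. Wnt7b was among the steadiest genes with 0.867%.

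**Figure D4:**
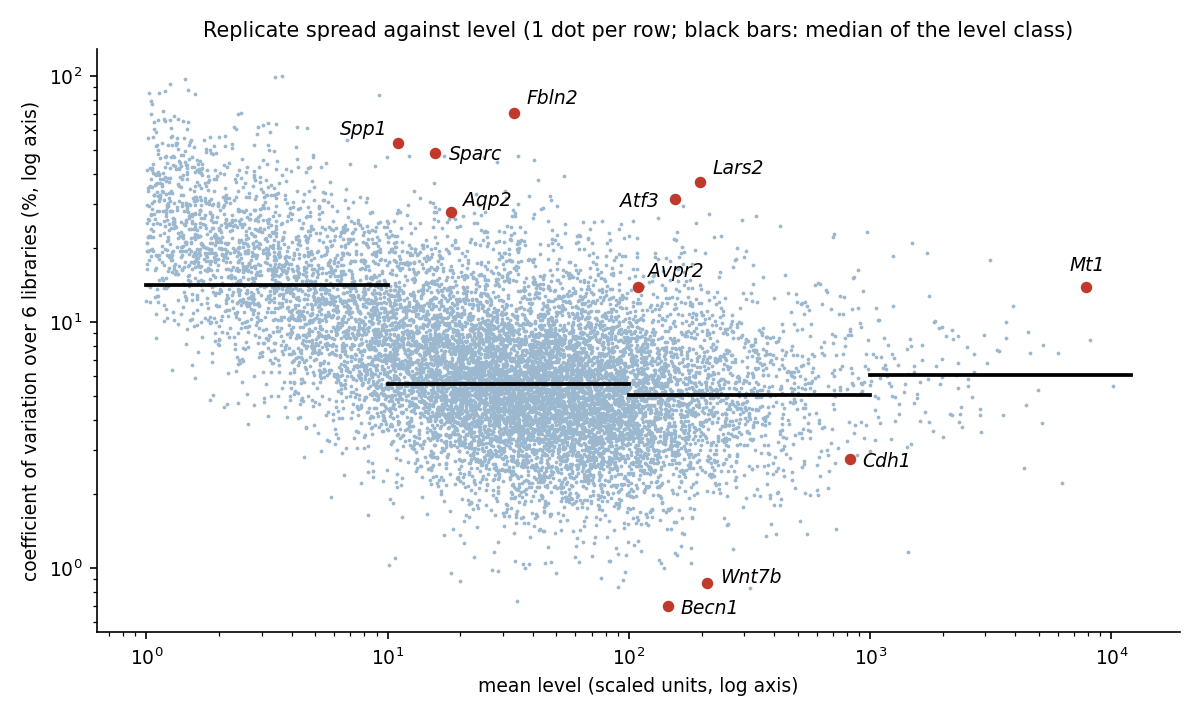
Coefficient of variation over the 6 wild-type vehicle libraries (%, log axis) against mean level (scaled units, log axis), 1 dot for each row whose mean reached 1 scaled unit. Black bars mark the median of each level class, 14.1%, 5.59%, 5.02% and 6.08%, and red points mark named genes, with Fbln2 at 70.9% and Becn1 at 0.70% at the ends.

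Among the 8391 single-named genes whose mean reached 10 scaled units, 22 varied by over 30% beyond counting, and 472 or 5.63% showed no spread beyond it. The most variable was Fbln2, an extracellular matrix protein, with 77.0, 34.8, 16.9, 24.2, 10.2 and 37.5 scaled units in libraries 1 to 6 and a CV of 70.9%. Others among the 10 most variable were osteopontin, Spp1, with 53.1%, the matrix protein Sparc with 48.4%, the actin regulator Fmnl1 with 47.2%, the desaturase Scd1 with 47.1%, the neurotrophin receptor Ngfr with 47.0%, the receptor tyrosine kinase Axl with 46.8% and Slc4a11, a proton and water carrier, with 39.1%.

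All 10 most variable genes were highest in library 1, and 9 were lowest in library 5. Without library 1 the CV of Fbln2 was 46.8%, that of Axl 29.9% and that of Spp1 51.8%, and 8 genes in place of 22 exceeded 30%. Library 3 also mattered to that count, which was 34 without it. Lars2, a mitochondrial tRNA synthetase named after its values were seen, had another pattern, with 289 and 291 scaled units in libraries 1 and 6 and 135 to 177 in the other 4.

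At the opposite end, among the genes with no spread beyond counting, the 10 with the lowest CV included the autophagy gene Becn1 with 145 ± 1.02 scaled units, Wipi2 with 94.7 ± 0.845, which acts in the same pathway, the ubiquitin ligase scaffold Cul3 with 95.9 ± 0.918 and the interferon receptor Ifnar1 with 76.3 ± 0.692. Fkbp15, Eif1ad, Pofut1, Naa20, Rhbdd2 and Virma completed them, all with a CV under 1%.

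The libraries differed by more than counting error. Between pairs of libraries, the Pearson correlation of log2 levels over rows lay between 0.988 and 0.997, a description across genes, which are not independent. The χ2 per gene between read counts lay between 4.25 and 40.8 over the 15 pairs, so no pair was treated as a single library deposited more than once. The first principal component held 48.3% of the variance, with library 1 at 16.6 and library 5 at the other end at -15.01, and the second held 19.0%.

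Gene groups followed these axes differently. Over the 9040 rows that reached 10 scaled units, 22.2% were highest in library 1 and 20.9% in library 5, and 25.9% and 22.6% were lowest there. Of 31 cell cycle genes, 21 were highest in library 1 and 21 lowest in library 5. Top2a had 142 scaled units in library 1 and 71.2 in library 5, Plk1 57.7 and 23.4, and cyclin D1, Ccnd1, 25.6 and 9.72. Of 11 principal cell genes at that level, none was highest in library 1, 8 were lowest there and 6 were highest in library 5. Proliferation and principal cell genes thus had their extremes in the same libraries, in opposite order, and the part of one in the other was not tested. The summed level of the measured fibroblast genes was also highest in library 1, at 98.0, and lowest in library 5, at 39.8. That sum was made up mostly of Fn1 and Sparc, and Sparc is among the most variable genes named above. Whether other cells contributed to it was not tested.

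Immediate-early genes followed a second order. Of the 15 at that level, 8 were highest in library 6 and 7 in library 3, where 17.9% and 13.1% of all rows were highest. Atf3 had 112, 132, 206, 108, 146 and 224 scaled units in libraries 1 to 6, and Nr4a1 had 143, 172, 249, 146, 181 and 250. Their lowest value fell into library 1 for 7 genes, library 4 for 7 and library 2 for 1. These counts for immediate-early and principal cell genes were the same after scaling each library to the same total. The 21 cell cycle genes highest in library 1 stayed 21, and the 21 lowest in library 5 became 20. The shares of all rows moved with that scaling. Highest values then fell into libraries 1, 3, 5 and 6 for 28.5%, 6.46%, 16.9% and 9.89% of all rows. Lowest values fell into libraries 1 and 5 for 17.8% and 24.5%.

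Metabolic lists differed from each other. Of 18 glycolysis genes, 11 were lowest in library 1, and of 24 genes of metal and oxidative defence 15 were, beside 25.9% of all rows. Of 22 oxidative phosphorylation genes, 8 were highest in library 1 and 9 lowest in library 5, beside 22.2% and 22.6% of all rows. After scaling to the same total these counts were 13 and 10, beside 28.5% and 24.5% of all rows. Interferon-stimulated genes were highest in library 5 in 10 of 16 cases, beside 20.9% of all rows. After scaling to the same total this count was 8, beside 16.9%. The part of culture, RNA quality or library preparation in these differences was not tested, and the labels give no values for them.

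**Figure D5:**
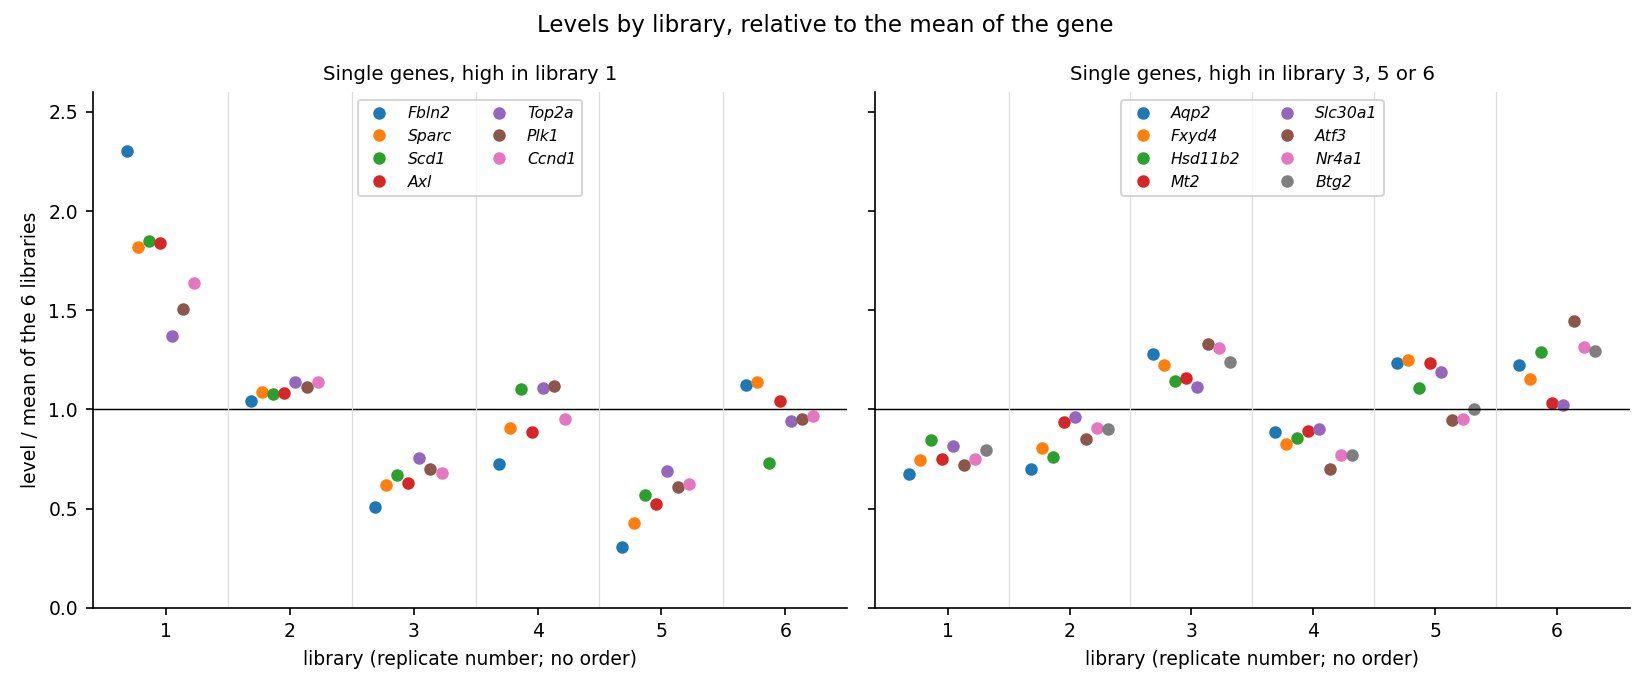
Level of single genes in each of the 6 wild-type vehicle libraries, divided by the mean of the gene, so that 1 marks the mean; the genes were picked after their values were seen. Fbln2, Sparc, Scd1, Axl, Top2a, Plk1 and Ccnd1 (left panel) peak in library 1, whereas Aqp2, Fxyd4, Hsd11b2, Mt2, Slc30a1, Atf3, Nr4a1 and Btg2 (right panel) lie below their mean in libraries 1, 2 and 4.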

How the data were processed

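RNA of 6 wild-type vehicle libraries of mpkCCD cells was poly(A)-selected and sequenced, per the labels' protocols. The deposited values are a length-normalized signal per gene: whole reads divided by the authors by a factor per library and by a gene length in bases, as the file header and the steps of the values show. The submitters' processing notes list STAR 2.7.8a, DESeq2, DESeq and the mouse build GRCm39, without their roles, and the annotation behind the gene lengths is not given in the sources used here. The authors' aligner settings and filters on low genes are likewise not given.

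Value times length stepped by a constant in each library, so reads were recovered (100% of values whole within 0.1 reads) and gave 30.4 to 41.0 M per library. The deposited values were multiplied by 95.4 to give scaled units. Rows with joined or repeated names (333 and 393 of 12224) stayed in totals and ranks, and were not described. An exact two-sided sign-flip permutation test was applied to log2 ratios of 12 gene pairs across 6 libraries, with Benjamini-Hochberg adjustment over the 12. All 12 gave the smallest p that 6 libraries allow, so the p does not rank the pairs. A further 3 pairs had no pair of single rows. Correlations and principal components used log2(level + 0.5) of the rows that reached 1 scaled unit. The CV beyond counting subtracts the variance that Poisson counting of the reads would give. A count of 0 was read against a floor of 3 reads, which covers counting error only. The calculations were tested on simulated data.

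The members, gene lists and tests were chosen with earlier results of these data known. Genes were named as the 25 highest rows, up to 8 per list in order of level with low defining markers, the 10 most and 10 least variable genes, and Aqp2, Scnn1b, Krt18, Cdh1 and Gpr39. Some genes under this rule, and 1 of the 12 pairs, are not reported here, and counts include them. Pkd1, Pkhd1, Prss8, Nedd4l, Atp1b3, Kcnk5, Slc4a4, Pde7a, Stx3, Top2a, Mki67, Plk1, Ccnd1 and Lars2 were named after their values were seen. Transcript lengths are the longest coding transcript per symbol in the GENCODE mouse annotation, an alternative chosen after seeing the data. Promoters came from RefSeq on GRCm38.p6, another build than that of the files, and were matched by symbol for 4 of 4 genes. Python 3.11.15, numpy 2.4.6, pandas 2.3.3, scipy 1.17.1 and matplotlib 3.10.9 were used.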

Additional observations from a re-analysis of the deposited data

Results flagged for a closer look

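Of 248 quantities checked over the 6 libraries, 6 had 1 library that stood apart from the rest, where the gap to the nearest library exceeded Dixon's 95% limit as a share of the whole range. Chance alone flags about 1 in 20 quantities checked, which is more than the number found here. Aqp3 was highest in library 4, at 7.49 scaled units against 5.99 to 6.42 in the others, a gap of 0.714 of the range. Prkar1a was highest in library 6, at 384 against 348 to 358, a gap of 0.709 of the range. Slc3a2 was lowest in library 1, at 203 against 220 to 229.5, a gap of 0.635 of the range. Wipi2 was also lowest in library 1, at 93.0 against 94.8 to 95.3, a gap of 0.784 of the range, although it belongs to the genes with the least spread. The summed level of the 7 measured genes of the connecting and distal convoluted tubule was lowest in library 6, at 157 against 175 to 184, a gap of 0.672 of the range. The number of recovered reads was lowest in library 2, at 30.4 M against 37.6 to 41.0 M, a gap of 0.676 of the range.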

How the results depend on the processing

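No paired analysis was possible because the 6 libraries form 1 group, so no replicate number joins groups here. The largest changes came with the gene length: with GENCODE lengths, chosen after seeing the data, Aqp2 stood at 49.4, Scnn1b at 6.16, Krt18 at 5246, Cdh1 at 720 and Gpr39 at 29.4 scaled units, the level of 167 of the 204 named genes moved by more than 1 SD, 1 endothelial gene in place of 2 reached 1 scaled unit, and the 100 and 1000 highest rows held 25.1% and 58.5%. As shares of reads, without length, the 10, 100 and 1000 highest rows held 4.95%, 16.6% and 48.6%, 72.7 rows per library on average exceeded 1000 per 1000000 reads, and Krt7 was above Krt19 by 1.18 (log2) instead of below. With single-named rows only, the 10 and 1000 highest rows held 6.53% and 57.3%. With a threshold of 5 scaled units, 3 genes each of the distal tubule and the thick limb and 1 endothelial gene remained counted.

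The median CV was 6.70% after bringing every library to 1 total, 6.62% with no filter on low values and 5.45% for rows at 10 or more, and 5.50% and 4.81% beyond counting under the first and last of these. Leaving out each library in turn, the median CV lay between 5.95% and 6.46%, 4.69% and 5.27% beyond counting, with the lowest values without library 1, and the number of genes above 30% between 8 and 34. With 5 libraries the exact permutation test cannot go below p = 0.0625, so no pair passed it, while each log2 ratio reported kept its direction: Scnn1a over Scnn1b 5.48 to 5.57, Scnn1a over Scnn1g 3.45 to 3.55, Scnn1b over Scnn1g -2.06 to -1.96, Aqp2 over Aqp3 1.38 to 1.57, Krt7 over Krt19 -0.70 to -0.64, Avpr2 over Gpr39 2.20 to 2.38, Nr3c1 over Nr3c2 3.15 to 3.20, Adcy6 over Adcy3 5.08 to 5.43, Prkaca over Prkacb 0.99 to 1.03, Slc12a2 over Slc12a7 0.72 to 0.80 and Mt1 over Mt2 1.30 to 1.34. The cause of these movements was not tested beyond what each alternative changes by its construction. Depth limits statements on genes below about 1 scaled unit, such as Slc4a1, Bdkrb2 and Cd79a.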

Other observations

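The recovered reads of libraries 1 and 4 summed to 38976457 and 38976453, a difference of 4 reads, although the libraries differed in nearly all genes: 191 of the 12224 rows had the same number of reads in both. Nr3c2 and Sim1 had their lowest value in library 6, together with Scnn1a, Tfcp2l1, Pax8, Grhl2 and Aqp3, whereas most other principal cell genes were lowest in library 1. Hoxd8 varied by 1.43% over the libraries and Wnt7b by 0.867%, beside 15.96% for Hoxd10.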
